A study of Mus musculus with 9 samples.

Results

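RNA of orthotopic Hepa1-6 tumors was examined for 10 genes of the neutrophil program and of the chemokines that call neutrophils into tissue, namely S100a8, S100a9, Csf3r, Cxcr2, Retnlg, Trem1, Cxcl1, Cxcl2, Cxcl3 and Cxcl5. The genes were taken by symbol from 52176 gene names listed in the tables of 9 tumors, and each of the 10 had an entry in all 9. Hepa1-6 is a mouse hepatoma line. Pieces of Hepa1-6 tumor were implanted into the left liver lobe of male C57BL/6 mice aged 6 to 8 weeks. Mice received PBS (3 tumors) or an anti-PD-1 antibody, clone RMP1-14, by intraperitoneal injection every 4 days for 5 injections the first on day 10 and the last on day 26, and on day 27 the tumors were taken and freed of surrounding tissue. The antibody-treated tumors form an anti-PD-1 antibody-nonresponsive group (3 tumors) and an anti-PD-1 antibody-responsive group (3 tumors), which the study drew from the largest and the smallest tumors and left out those in between. The antibody groups were therefore defined by tumor size after treatment. Each tumor came from its own mouse, all tumors derive from 1 cell line, and no tumor carries an engineered allele by its labels.

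Neutrophils are short-lived granulocytes that are made in bone marrow under granulocyte colony-stimulating factor and leave it for blood and tissue along gradients of CXC chemokines. Ligands of this class bind the receptor CXCR2 on the neutrophil surface and are released by macrophages, stromal cells, tumor cells and neutrophils themselves after interleukin 1 or tumor necrosis factor has activated NF-kB. In liver tumors neutrophils have been described both as helpers of tumor growth and as cells that attack it. S100A8 and S100A9, which form the heterodimer calprotectin, fill the neutrophil cytosol and are also made by monocytes.

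Cxcl1, Cxcl2 and Cxcl3 lie beside each other on mouse chromosome 5, and their promoters are shown because the genes were listed together in several tumors and share a sequence element. Reference promoters from RefSeq (build GRCm38.p6, 250 bases before to 50 bases after each start site) were matched for 9 of the 10 genes, with Cxcl5 not among them. The letters GGAATTTCC, a form of the NF-kB element that reads the same on both strands apart from its central base, were searched on both strands. They occurred in the promoters of Cxcl1, Cxcl2 and Cxcl3 and in none of the other 6, against 0.317% of 32851 promoters of the same length. In the 120 bases before each start site, printed 5′ to 3′ on the plus strand, the capitals mark that element. The stretches are chr5:90891125-90891244 for Cxcl1, chr5:90903779-90903898 for Cxcl2 and chr5:90785981-90786100 for Cxcl3.
Cxcl1: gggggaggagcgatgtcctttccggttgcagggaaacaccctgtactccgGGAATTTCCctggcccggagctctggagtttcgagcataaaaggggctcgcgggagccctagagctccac
Cxcl2: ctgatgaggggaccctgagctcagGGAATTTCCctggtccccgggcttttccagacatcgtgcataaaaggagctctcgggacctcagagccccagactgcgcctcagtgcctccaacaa
Cxcl3: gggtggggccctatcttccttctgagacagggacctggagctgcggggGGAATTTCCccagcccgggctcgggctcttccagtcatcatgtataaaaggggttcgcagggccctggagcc
The element began 70 bases before the start site in Cxcl1, 96 in Cxcl2 and 72 in Cxcl3. A match of letters is a description of the sequence and was not tested for binding of any factor.

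All levels are FPKM as estimated by Cufflinks, that is fragment numbers divided by transcript length and by the mapped fragments of the tumor. The number of sequenced fragments is not given in the sources used here. The precision of a value is therefore taken from the 95% interval that Cufflinks printed beside it, whose half-width over the 10 genes and 9 tumors ran from 3.18% of the value for Cxcl2 to 27.3% for Retnlg. Transcripts were assembled tumor by tumor, so that nearby genes can fall into 1 row. S100a8 shared a row with S100a6 and S100a7a in PBS 2, Csf3r with Mrps15 in responsive 1, and Trem1 with Trem3 in 7 of 9 tumors. Cxcl2 and Cxcl3 were 1 row in PBS 3 and nonresponsive 1, Cxcl1 and Cxcl2 were 1 row in nonresponsive 2, and Cxcl1 shared its row with a 5S ribosomal RNA in nonresponsive 1. Values per tumor below are the sums over rows that name the gene. For tests, genes that shared a row in any tumor were joined into 1 locus in all tumors, which turned the 10 genes into 8 loci.

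S100a8 and S100a9 were the most abundant of the 10 genes. S100a9 stood at 83.8, 1160 and 1140.5 FPKM in PBS 1, 2 and 3, at 2760, 1046 and 254 FPKM in nonresponsive 1, 2 and 3, and at 1308, 209 and 1785 FPKM in responsive 1, 2 and 3. The 3 groups overlapped, and each held 1 tumor far below the other 2. S100a8 stood at 62.8, 1179 and 829 FPKM in the PBS tumors, at 1995, 903 and 220 FPKM in the nonresponsive tumors, and at 915, 171 and 1346 FPKM in the responsive tumors, where the value in PBS 2 includes S100a6 and S100a7a. The same tumor was lowest in each group for both genes, namely PBS 1, nonresponsive 3 and responsive 2. S100a9 ranged 13.8-fold among PBS tumors, 10.9-fold among nonresponsive tumors and 8.53-fold among responsive tumors. S100a9 per S100a8 stayed between 1.16 and 1.43 in the 8 tumors where S100a8 had a row of its own.

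The receptors followed the same tumors at much lower levels. Csf3r, the receptor for granulocyte colony-stimulating factor, stood at 9.72, 48.7 and 45.7 FPKM in the PBS tumors, at 147, 56.4 and 26.96 FPKM in the nonresponsive tumors, and at 102, 15.4 and 54.5 FPKM in the responsive tumors, with Mrps15, a mitochondrial ribosomal protein gene, counted into responsive 1. Cxcr2, the receptor through which neutrophils follow the ligands above, stood at 3.41, 21.5 and 19.0 FPKM in the PBS tumors, at 46.7, 27.4 and 6.27 FPKM in the nonresponsive tumors, and at 18.2, 3.02 and 14.3 FPKM in the responsive tumors. Cxcr2 was highest in nonresponsive 1 and nonresponsive 2, while nonresponsive 3 lay below every tumor except PBS 1 and responsive 2. Trem1, an activating receptor of neutrophils and monocytes that signals through the adaptor Tyrobp, stood at 3.41, 17.9 and 17.2 FPKM in the PBS tumors, at 43.6, 24.9 and 4.58 FPKM in the nonresponsive tumors, and at 26.8, 2.67 and 23.1 FPKM in the responsive tumors. Only nonresponsive 3 and responsive 2 gave Trem1 without Trem3, and these 2 tumors had 2.19 and 2.31 FPKM of Trem3 beside it.

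Retnlg encodes a resistin-like protein that marks mature mouse neutrophils. It stood at 15.6, 38.6 and 52.6 FPKM in the PBS tumors, at 127, 75.4 and 17.0 FPKM in the nonresponsive tumors, and at 25.2, 8.16 and 69.7 FPKM in the responsive tumors. In responsive 1 it was the fourth lowest of 9 tumors, beside Cxcr2 and Cxcl3 as the fifth lowest, while the other 7 genes ranked sixth to eighth there.

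Of the CXCR2 ligands, Cxcl5 had a row of its own in every tumor. It stood at 10.7, 100.6 and 39.9 FPKM in the PBS tumors, at 159, 65.4 and 16.2 FPKM in the nonresponsive tumors, and at 114, 21.8 and 69.6 FPKM in the responsive tumors. Every group spanned most of the range, 9.37-fold among PBS tumors and 5.25-fold among responsive tumors. Cxcl1, Cxcl2 and Cxcl3 together stood at 60.9, 884 and 651 FPKM in the PBS tumors, at 1231, 396 and 148 FPKM in the nonresponsive tumors, and at 839, 122 and 787 FPKM in the responsive tumors. The low tumor of each group was again PBS 1, nonresponsive 3 or responsive 2.

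The ligands can be told apart only where the rows are separate. In the 6 tumors in which Cxcl2 had a row of its own it ranged from 7.24 FPKM in PBS 1 and 12.4 FPKM in nonresponsive 3 through 42.7 FPKM in responsive 2 to 547, 560 and 594 FPKM in responsive 3, PBS 2 and responsive 1. Cxcl3 in its own row ranged from 45.7 FPKM in PBS 1 to 275 FPKM in PBS 2, with 61.9, 138 and 170 FPKM in responsive 2, 1 and 3, and 121 and 119.5 FPKM in nonresponsive 2 and 3. Cxcl1 in its own row ranged from 7.97 FPKM in PBS 1 to 107 FPKM in responsive 1. In PBS 1, nonresponsive 3 and responsive 2 Cxcl3 was the highest of the 3 ligands, and in responsive 1, responsive 3 and PBS 2 it was Cxcl2. How Cufflinks divided reads among these nearby, similar genes may differ from tumor to tumor, so the split is less certain than the sum.

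**Figure D1:**
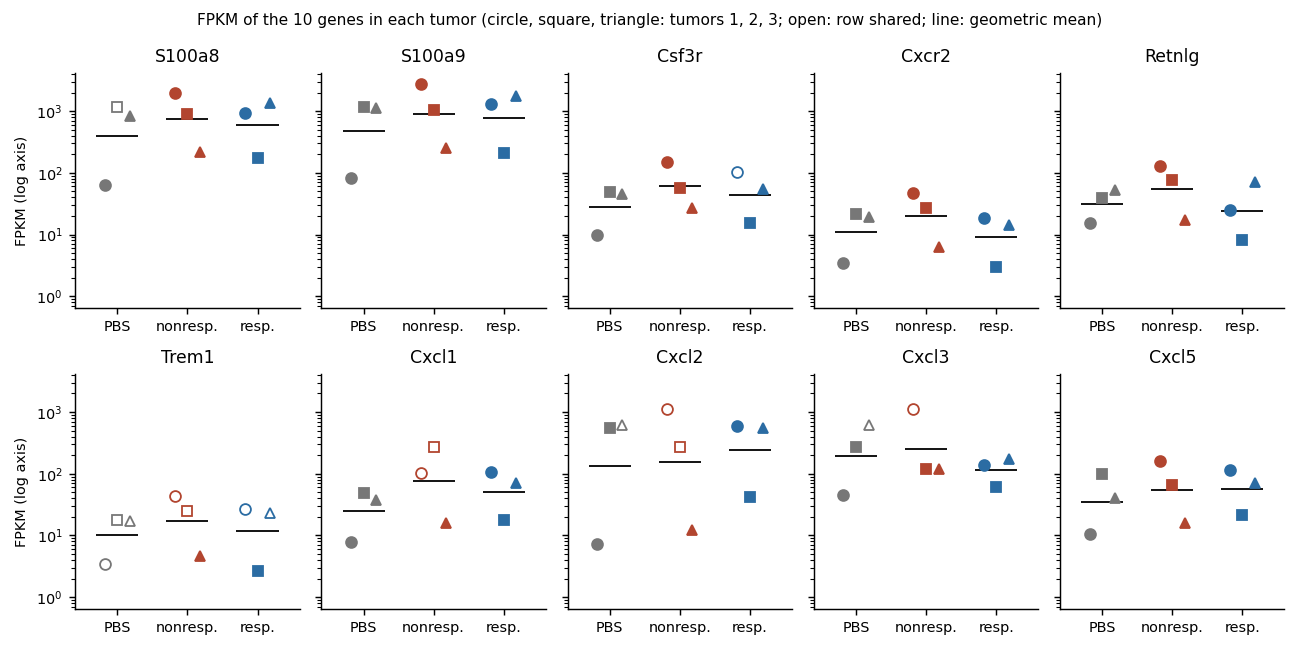
FPKM (log axis) of each of the 10 genes in the 3 PBS, 3 nonresponsive and 3 responsive tumors, with open symbols where the row also names another gene and a line at the geometric mean of the group. In all 10 panels the circle of PBS, the triangle of the nonresponsive group and the square of the responsive group are the lowest points, and the 3 groups overlap.

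The comparison of responsive with nonresponsive tumors asks whether these genes differ between tumors that stayed small and tumors that grew under the antibody. None of the 8 loci passed an unadjusted p of 0.05 with limma on log2(FPKM + 1), against 5.93% of 12716 loci tested, and at none were the groups apart, against 10.5% of all loci. The unadjusted p ran from 0.286 to 0.995 and the adjusted p from 0.978 to 0.999 (limma, Benjamini-Hochberg over all loci). Cxcr2 and Retnlg had the largest differences, with log2 differences of -1.02 (SE 0.873, 95% interval -3.13 to 1.10) and -1.12 (SE 0.972, 95% interval -3.48 to 1.23), and both had an exact permutation p of 0.40. Cxcl5 and the joined Cxcl1, Cxcl2 and Cxcl3 differed by 0.0068 and 0.056, with intervals from -2.28 to 2.30 and from -2.44 to 2.56. S100a9 differed by -0.20 (95% interval -2.94 to 2.55), so that changes of several-fold in either direction lie inside the interval. The median over the 8 loci was -0.31, beside -0.067 over all loci tested. It was -0.98 without nonresponsive 3, with 8 of 8 loci lower in responsive tumors, and 0.14 without nonresponsive 1, with 6 of 8 higher. It was also -0.61 without responsive 3, -0.53 without responsive 1 and 0.16 without responsive 2.

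Against PBS the responsive tumors showed no difference that passed either. Of the 8 loci 0 passed an unadjusted p of 0.05 with limma, where 19.1% of 12715 loci did, and 0 had groups apart, where 28.8% of loci did. The adjusted p ran from 0.684 to 0.975 (limma). S100a9 had a log2 difference of 0.71 (SE 1.31, 95% interval -2.49 to 3.91), Cxcl5 one of 0.64 (SE 0.940) and Cxcr2 one of -0.25 (SE 0.856). The median over the 8 loci was 0.29 beside -0.11 over all loci, and without PBS 1 it was -0.39, with 8 of 8 loci lower. It was 0.81 without responsive 2, 0.52 without PBS 3, 0.54 without PBS 2, and 0.033 and 0.029 without responsive 1 and responsive 3.

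Nonresponsive tumors had higher means than PBS tumors at 8 of 8 loci, and 0 passed an unadjusted p of 0.05 with limma, where 3.23% of 12663 loci did. At 0 of 8 were the groups apart, where 8.09% of all loci had groups apart. Log2 differences ran from 0.29 at the joined S100a6, S100a7a and S100a8 to 0.90 (SE 1.31) at S100a9, with adjusted p from 0.700 to 0.907 (limma). For Trem1 with Trem3 the difference was 0.85 (SE 0.837), for Retnlg 0.77 (SE 0.812) and for Cxcr2 0.77 (SE 0.910). Without PBS 1 the median over the loci went from 0.70 to 0.060, with 5 of 8 higher, and without nonresponsive 3 it was 1.52. It was 0.13 without nonresponsive 1 and 1.12 without PBS 2.

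All 6 antibody-treated tumors as 1 group against the 3 PBS tumors also gave 8 of 8 higher means and 0 of 8 past an unadjusted p of 0.05 with limma, where 11.1% of 13185 loci passed. Higher means were found at 5802 of those 13185 loci. The 2 groups were apart at none of the 8 loci and at 2.87% of all loci. The median difference was 0.37, beside -0.069 over all loci, and without PBS 1 it was -0.23, with 1 of 8 loci higher. It was 0.85 without PBS 2, 0.66 without PBS 3, 0.68 without responsive 2, 0.57 without nonresponsive 3 and 0.12 without nonresponsive 1. The exact permutation p ran from 0.286 to 0.833, in a design of 6 against 3 that can reach 0.0238, while 3 against 3 cannot go below 0.10. The 4 comparisons share tumors and are not independent of each other. Levels of a bulk tumor cannot tell fewer neutrophils from less RNA per neutrophil.

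For S100a8, Csf3r and Trem1 the joined locus is partly another gene. S100a6, a calcium-binding protein of many cell types, made up 786 of 849 FPKM of the S100a8 locus in PBS 1 together with S100a7a. Rows that name S100a8 gave log2 differences of -0.30 (SE 1.06) for responsive against nonresponsive tumors and 0.74 (SE 1.08) for all antibody-treated tumors against PBS, where the joined locus gave -0.27 and 0.16. The second value counts the shared row of PBS 2, and with that row set missing it was 1.53 (SE 1.20), over 2 PBS tumors. The Csf3r row gave -0.45 (SE 0.852) and 0.86 (SE 0.747), and the Trem1 row -0.46 (SE 1.05) and 0.46 (SE 0.860). Taken by rows, 0 of the 10 genes passed an unadjusted p of 0.05 in any of the 4 comparisons with limma, with the smallest p at 0.198 for Cxcl1 in all antibody-treated tumors against PBS.

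**Figure D2:**
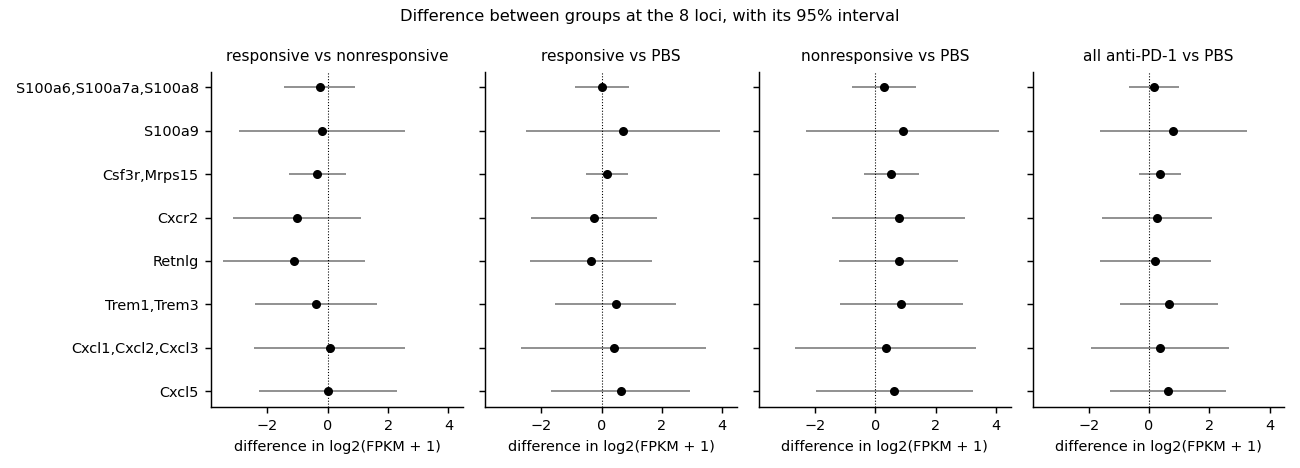
Difference of group means in log2(FPKM + 1) at the 8 loci (points) with its 95% interval from limma (bars), 1 panel per comparison. All 32 intervals include 0.

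The spread lay between tumors of the same group. Of the variance of log2(FPKM + 1) over the 9 tumors, 98.5% lay within groups for the joined Cxcl1, Cxcl2 and Cxcl3, 94.1% for Cxcl5, 93.9% for S100a9, 85.9% for Cxcr2 and 83.7% for Retnlg, beside a median of 68.4% over 13185 loci. S100a9 had an SD of 1.67 on the log2 scale over the 9 tumors and the joined ligands one of 1.53, above 96.5% and 95.2% of loci, where the median locus had 0.404. All 10 genes had the same 3 lowest tumors, PBS 1, nonresponsive 3 and responsive 2. The highest nonresponsive tumor was nonresponsive 1 for 9 of 10 genes, with Cxcl1 highest in nonresponsive 2, where its row holds Cxcl2 too. Within the antibody-treated groups, which were chosen by size, large and small tumors alike thus included 1 tumor with low and 2 with higher levels of these genes.

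The 9 tumors fell into these 3 low ones and 6 higher ones, so that over all 9 tumors 13 of 15 pairs of genes had an adjusted exact permutation p under 0.05, for r and for rho alike, with the gap between low and higher tumors in every value. Relations were therefore also taken over the 6 higher tumors (PBS 2, PBS 3, nonresponsive 1, nonresponsive 2, responsive 1 and responsive 3), for 15 pairs. S100a8 and S100a9 had Pearson r = 0.92 and Spearman rho = 0.89 (exact permutation p = 0.0153 and 0.0333, both adjusted over the 15 pairs to 0.229 and 0.250, n = 6). Interleukin 1 beta, an inducer of the CXCR2 ligands, followed the joined ligand locus with r = 0.85 and rho = 0.77 (exact permutation p = 0.0569 and 0.103, adjusted 0.323 and 0.514, n = 6). Csf3, which encodes granulocyte colony-stimulating factor, followed its receptor Csf3r with r = 0.77 and rho = 0.60 (exact permutation p = 0.0875 and 0.242, adjusted 0.323 and 0.637, n = 6). Cxcl5 followed the joined ligand locus with r = 0.69 and rho = 0.89 (exact permutation p = 0.125 and 0.0333, adjusted 0.323 and 0.250, n = 6), while Cxcr2 and that ligand locus had r = 0.27 and rho = 0.26 (exact permutation p = 0.583 and 0.658, adjusted 0.729 and 0.705, n = 6). None of the 15 pairs passed after adjustment over the 6 tumors, with adjusted exact permutation p of 0.229 to 0.778 for r and 0.250 to 0.803 for rho. Leaving out the 2 of these 6 tumors farthest from the median of the first gene took S100a8 with S100a9 to r = 0.072, the ligand locus with Il1b to -0.24 and Csf3r with Csf3 to -0.54. Among the 6 higher tumors those relations thus rest on 2 tumors. The S100a8 value of PBS 2 also holds S100a6 and S100a7a. The ligand locus with Cxcl5 stayed at 0.96 over the 4 tumors left. Over all 9 tumors, the 2 farthest were PBS 1 and responsive 2. Without them the first 3 relations kept r = 0.98, 0.97 and 0.85, with nonresponsive 3 still among the tumors.

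**Figure D3:**
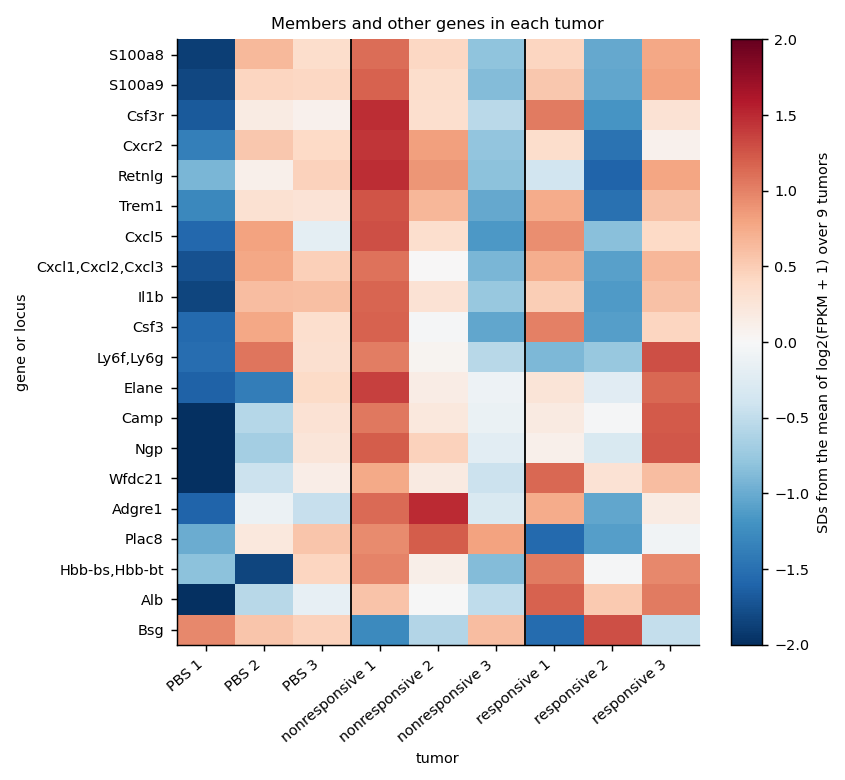
Level of the 10 genes (Cxcl1, Cxcl2 and Cxcl3 joined) and of other genes in each of the 9 tumors, in SDs from the mean of log2(FPKM + 1) over the tumors, with black lines between the groups. PBS 1, nonresponsive 3 and responsive 2 are blue for all of the 10 genes and nonresponsive 1 is red, whereas Bsg runs the other way.

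Levels relative to Cxcr2 within a tumor compare the other genes with the receptor. S100a9 FPKM divided by Cxcr2 FPKM of the same tumor was 24.6, 54.0 and 60.1 in the PBS tumors and 59.1, 38.2 and 40.5 in the nonresponsive tumors. It was 71.8, 69.3 and 124.5 in the responsive tumors, above all 6 others. Cxcl5 per Cxcr2 was 3.15, 4.68 and 2.104 in the PBS tumors, 3.41, 2.39 and 2.58 in the nonresponsive tumors, and 6.27, 7.21 and 4.85 in the responsive tumors, again above all 6 others. The joined Cxcl1, Cxcl2 and Cxcl3 per Cxcr2 lay between 40.6 and 54.9 in responsive tumors and between 14.4 and 26.4 in nonresponsive tumors, with PBS 2 at 41.2 inside the responsive range. S100a8 per Cxcr2 lay between 50.2 and 93.9 in responsive tumors and between 33.0 and 42.7 in nonresponsive tumors, with PBS 2, whose row holds other genes, at 54.9. Csf3r per Cxcr2 lay between 3.80 and 5.615 in responsive tumors, above the PBS tumors at 2.27 to 2.85. It overlapped the nonresponsive tumors, at 2.06 to 4.30, and the Csf3r row of responsive 1 also holds Mrps15. Retnlg and Trem1 per Cxcr2 overlapped between the groups. Over 13177 loci outside the 10 genes, the ratio to Cxcr2 lay above all 6 other tumors in the 3 responsive ones at 5.68% and above the 3 nonresponsive tumors at 7.32%. A ratio within a tumor does not depend on how the tumor was scaled, but the same Cxcr2 values enter every ratio, Cufflinks' interval of Cxcr2 reached 16.1% of the value, and these ratios were formed after the values had been seen, so they are given with no test.

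**Figure D4:**
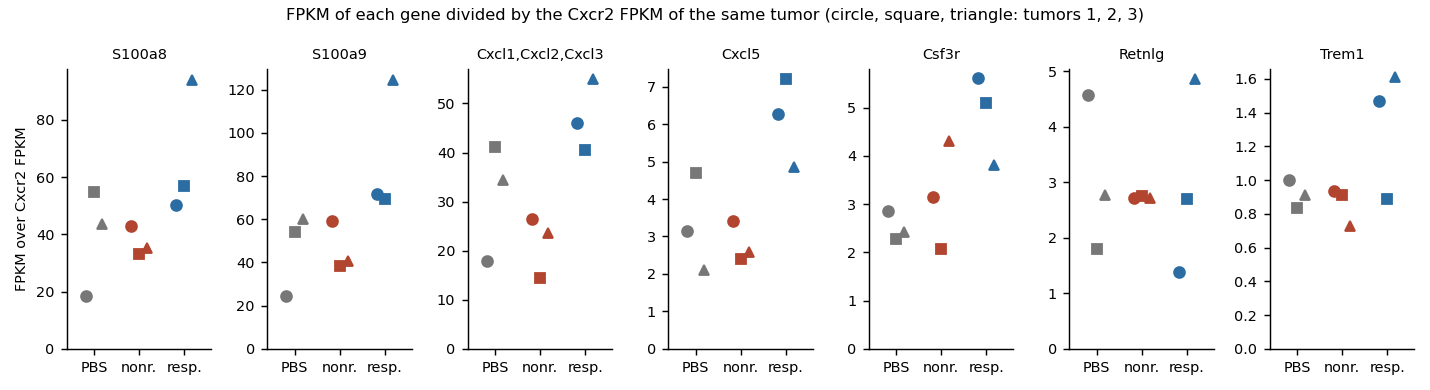
FPKM of each gene divided by the Cxcr2 FPKM of the same tumor in the 9 tumors, on linear axes that start at 0. The 3 responsive tumors lie above the other 6 for S100a9 and Cxcl5, and above the 3 nonresponsive tumors for S100a8 and the joined ligands. For Csf3r, Retnlg and Trem1 the range of the responsive tumors overlaps that of the nonresponsive tumors.

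Other neutrophil genes were read from 3 lists. Granule genes are made in sequence while a neutrophil matures, primary granules first, so they tell immature from mature stages in marrow. Primary granule genes were low: Elane (neutrophil elastase) reached at most 18.3 FPKM, Mpo (myeloperoxidase) at most 9.47 FPKM and Ctsg (cathepsin G) at most 6.83 FPKM, and Prtn3 was listed at 0 in every tumor. Azu1 had no entry, so no level can be given for it. Ly6g, the surface antigen used to sort mouse neutrophils, was also low and read only together with Ly6f, at 0.300, 4.77 and 2.75 FPKM in the PBS tumors, 4.597, 2.21 and 1.26 FPKM in the nonresponsive tumors and 0.862, 1.01 and 5.51 FPKM in the responsive tumors. Of these markers of neutrophils, those with a level above 0 stood far under S100a8 and S100a9.

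Between responsive and nonresponsive tumors 0 of 4 primary granule loci, 0 of 10 secondary and tertiary granule loci and 0 of 25 surface and mature neutrophil loci passed an unadjusted p of 0.05 with limma, beside 5.93% of all loci. The medians of the lists were -0.031, -0.036 and -0.16. Against PBS, all antibody-treated tumors gave 3 of 4 primary granule loci, 3 of 10 secondary and tertiary granule loci and 2 of 25 surface and mature loci past an unadjusted p of 0.05, all higher, beside the 11.1% of all loci, with list medians of 1.18, 0.98 and 0.68. None of these passed after adjustment, with adjusted p of 0.396 (limma). Among the primary granule calls, Ms4a3 stayed under an FPKM of 1 in every PBS tumor, at 0, 0.0734 and 0.538 FPKM. Antibody-treated tumors alone brought it past the filter, so its call is no independent count. In responsive tumors against PBS 0 of 3, 0 of 10 and 0 of 25 loci of the lists passed an unadjusted p of 0.05, beside 19.1% of all loci. In nonresponsive tumors against PBS 0 of 3, 1 of 9 and 0 of 25 did, beside 3.23% of all loci. Elane stood at 0.141, 0.429 and 6.62 FPKM in the PBS tumors, at 18.3, 5.06 and 3.78 FPKM in the nonresponsive tumors, and at 5.74, 3.27 and 14.5 FPKM in the responsive tumors, a log2 difference of 1.78 (SE 0.696, unadjusted p = 0.0306 with limma). PBS 1 and PBS 2 lay below all 6 antibody-treated tumors, and PBS 3 lay above 4 of them. Mpo gave 1.29 (SE 0.496) and Ms4a3, a gene of granulocyte progenitors, 0.86 (SE 0.348).

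Of the secondary granule genes, Camp (the cathelicidin antimicrobial peptide) stood at 0.207, 7.15 and 21.3 FPKM in the PBS tumors, at 53.0, 19.2 and 12.5 FPKM in the nonresponsive tumors, and at 18.6, 14.3 and 65.1 FPKM in the responsive tumors. Ngp (neutrophilic granule protein) stood at 1.48, 9.69 and 28.3 FPKM, at 82.9, 36.1 and 16.8 FPKM, and at 24.2, 15.1 and 86.4 FPKM in the same order. PBS 3 overlapped the antibody-treated tumors for both genes. Their log2 differences were 2.09 (SE 0.876) and 1.95 (SE 0.823), and that of Chil3, a chitinase-like protein of neutrophils and macrophages, was 1.54 (SE 0.600), with 1.97 (SE 0.670) in nonresponsive tumors alone. Without PBS 1 the differences fell to 0.93 for Camp (unadjusted p = 0.213), 1.00 for Ngp (unadjusted p = 0.218), 1.27 for Elane (unadjusted p = 0.135), 1.07 for Mpo (unadjusted p = 0.102), 0.74 for Ms4a3 (unadjusted p = 0.115), and to 1.07 for Chil3 (unadjusted p = 0.137), and in nonresponsive tumors alone to 1.503 (unadjusted p = 0.0657), all unadjusted with limma. Without PBS 2, too, none of the 6 passed in all antibody-treated tumors. In that comparison Elane, Camp, Ngp and Chil3 also missed the threshold without nonresponsive 1 or responsive 3. Camp, Ngp and Chil3 missed it without nonresponsive 2, and Camp without responsive 1. Mpo missed it in no fit that left out an antibody-treated tumor. Ms4a3 reached an FPKM of 1 only in nonresponsive 1, responsive 1 and responsive 3, at 2.49, 1.25 and 2.00 FPKM. It was therefore below the filter, and not tested, when any 1 of these was left out. It kept its call without the other antibody-treated tumors. In nonresponsive tumors alone Chil3 also missed it without PBS 2, nonresponsive 1 or nonresponsive 2. Lcn2 (lipocalin 2, joined with a neighbour) was the most abundant granule gene at 68.9 to 1991 FPKM, with Mmp9 at 23.9 to 130 FPKM and Pglyrp1 (joined with Mill2) at 29.5 to 83.5 FPKM.

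The surface and mature list was led by Slpi, an inhibitor of neutrophil elastase, at 9.86 FPKM in PBS 1 and 286 to 3323 FPKM in the other 8 tumors. Wfdc21 stood at 21.2, 180 and 345 FPKM in the PBS tumors, at 692, 363 and 182 FPKM in the nonresponsive tumors, and at 1078, 411 and 594 FPKM in the responsive tumors, a log2 difference of 2.105 (SE 0.835, unadjusted p = 0.0323 with limma) for antibody against PBS. Lrg1, a secreted glycoprotein of neutrophils and hepatocytes, stood between 29.9 and 334 FPKM in PBS tumors and between 196 and 728 FPKM in antibody-treated tumors, a difference of 1.77 (SE 0.710). Without PBS 1 these were 0.94 (unadjusted p = 0.162) and 0.81 (unadjusted p = 0.175), and both also missed the threshold without nonresponsive 1, responsive 1 or responsive 3. The hepatocyte list moved in the same direction in the same comparison, as given further on, and its part in these values was not tested.

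**Figure D5:**
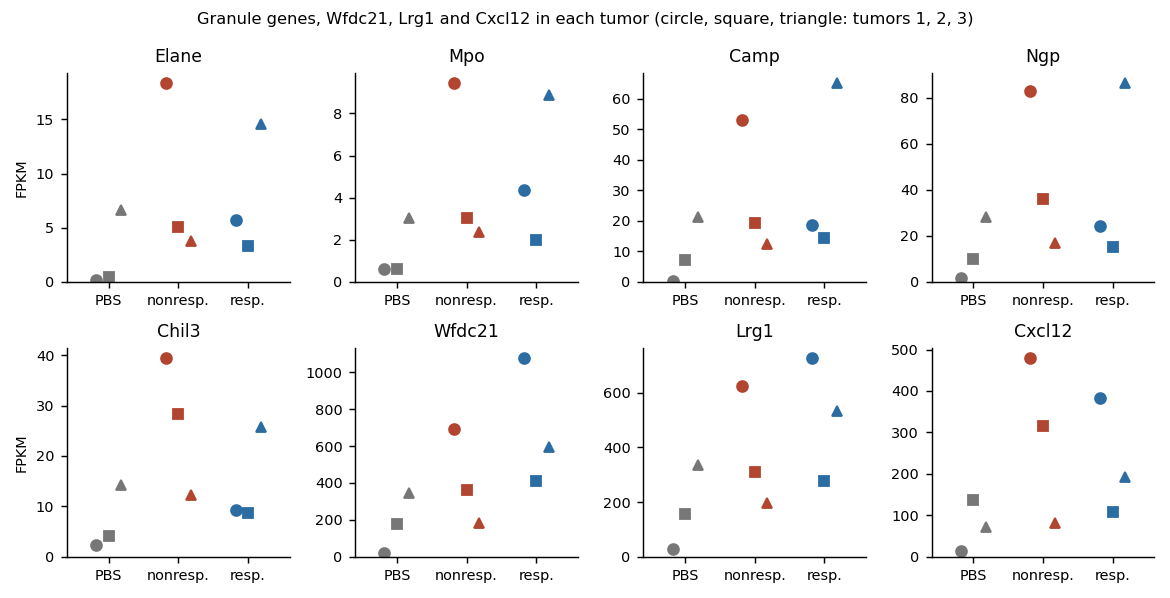
FPKM of primary granule genes (Elane, Mpo), secondary granule genes (Camp, Ngp, Chil3), Wfdc21, Lrg1 and Cxcl12 in the 9 tumors, on linear axes that start at 0. PBS 1 is the lowest tumor for all 8 genes, and 1 or more PBS tumors overlap the antibody-treated tumors for each of them.

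Of the 6 other genes of the CXCR2 axis, 0 passed an unadjusted p of 0.05 between responsive and nonresponsive tumors, beside 5.93% of all loci, and 2 passed for antibody against PBS, beside 11.1%, with list medians of -0.19 and 0.62. Ackr1, an atypical receptor that binds inflammatory chemokines without signaling (joined with Cadm3), stood at 2.26, 5.20 and 4.97 FPKM in the PBS tumors, at 13.4, 18.9 and 6.71 FPKM in the nonresponsive tumors, and at 9.77, 6.13 and 8.47 FPKM in the responsive tumors. All 6 antibody-treated tumors lay above the 3 PBS tumors, beside 2.87% of all loci whose groups were apart in either direction. The log2 difference was 1.13 (SE 0.358, unadjusted p = 0.0113 and adjusted p = 0.396 with limma), and without PBS 1 it was 0.83 (unadjusted p = 0.0601). The difference was 0.86 (SE 0.316) in responsive tumors and 1.40 (SE 0.435) in nonresponsive tumors. Without PBS 1 it was 0.56 (unadjusted p = 0.0649) in responsive tumors, where it also missed the threshold without responsive 1 or responsive 3, and in nonresponsive tumors it missed it without nonresponsive 2. Cxcl12, which holds neutrophils in marrow through the receptor Cxcr4, was the most abundant gene of the list at 15.0 to 480 FPKM. It differed by 2.00 (SE 0.758, unadjusted p = 0.0267 with limma) for antibody against PBS and by 1.12 without PBS 1 (unadjusted p = 0.141), and it also missed the threshold without nonresponsive 2. Cxcr4 lay between 13.1 and 72.6 FPKM. Cxcl15, a CXC chemokine of lung epithelium, ran from 0 FPKM in nonresponsive 1 and responsive 1 to 55.5 FPKM in PBS 1.

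The upstream cytokines had 9 of 11 genes listed, with no entry under the symbols Il36a and Il36g. Il36g was listed under its older symbol Il1f9, which was counted in the surface and mature list. Il1f9 ran from 1.86 FPKM in PBS 1 to 46.5 FPKM in nonresponsive 1. Il1b stood highest, from 36.5 FPKM in PBS 1 to 1062 FPKM in nonresponsive 1, ahead of Il1a at 3.55 to 126 FPKM and Tnf at 2.63 to 44.9 FPKM. Between responsive and nonresponsive tumors 0 of 8 passed an unadjusted p of 0.05, beside 5.93% of all loci, with a median of -0.19. For antibody against PBS 1 of 9 did, the same share as the 11.1% of all loci, with a median of 0.21. The gene was Il23a, the specific subunit of interleukin 23, which stood at 3.49, 7.24 and 5.41 FPKM in the PBS tumors, at 2.78, 2.35 and 3.74 FPKM in the nonresponsive tumors, and at 2.90, 2.88 and 2.74 FPKM in the responsive tumors, a log2 difference of -0.68 (SE 0.206, unadjusted p = 0.00936 with limma). It was -0.69 (SE 0.253) in responsive tumors alone. Without PBS 2 it missed the threshold in both comparisons, and in responsive tumors it also missed it without PBS 3 or without any 1 responsive tumor. Csf2, which encodes granulocyte-macrophage colony-stimulating factor, stood at 4.47, 9.77 and 15.1 FPKM in the PBS tumors and at 1.82, 3.09 and 5.49 FPKM in the nonresponsive tumors, a difference of -1.22 (SE 0.489, unadjusted p = 0.0463 with limma). It missed the threshold without PBS 2, PBS 3, nonresponsive 1 or nonresponsive 2.

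Partners and receptors of the members were led by Bsg (basigin, which binds S100A9) at 354 to 918 FPKM, Tyrobp at 169 to 905 FPKM and Ager, a receptor for S100 proteins that was joined with Gpsm3 and Pbx2, at 52.2 to 77.5 FPKM. Of 11 loci 0 passed between responsive and nonresponsive tumors, beside 5.93% of all loci, and 1 passed for antibody against PBS, a share under the 11.1% of all loci. It was Treml4 at 0.76 (SE 0.324, unadjusted p = 0.0434 with limma), and the medians over the 11 loci were -0.28 and 0.40. Treml4 kept its call without PBS 3, nonresponsive 3 or responsive 2 and missed the threshold without any other tumor, with 0.49 (unadjusted p = 0.194) without PBS 1. Of 10 other NF-kB target loci 1 passed between responsive and nonresponsive tumors, beside 5.93% of all loci, and 0 for antibody against PBS, beside 11.1%, with medians of 0.019 and 0.33. The one was Ccl20, a chemokine for CCR6, at 7.37, 4.09 and 6.48 FPKM in the responsive tumors, 2.52, 0.605 and 1.41 FPKM in the nonresponsive tumors and 0.402, 2.69 and 1.27 FPKM in the PBS tumors, with a log2 difference of 1.52 (SE 0.361, unadjusted p = 0.00518 and adjusted p = 0.835 with limma). Leaving out each of the 6 tumors in turn kept the unadjusted p under 0.05, with a smallest difference of 1.23. Against PBS the responsive tumors differed by 1.59 (SE 0.403, unadjusted p = 0.00767 and adjusted p = 0.246 with limma), where 19.1% of all loci passed the unadjusted threshold. Nfkbia, the inhibitor of NF-kB, was the most abundant of this list at 61.2 to 459 FPKM, ahead of Sod2 (joined with Tcp10b) at 47.5 to 376 FPKM and Ier3 at 95.7 to 196 FPKM.

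Markers of other cells moved with the tumors as well, and their part in the levels above was not tested. Summed over 6 hepatocyte genes, levels were 451 to 3959 FPKM in PBS tumors, 2691 to 9602 FPKM in nonresponsive tumors and 8699 to 18801 FPKM in responsive tumors. For antibody against PBS 6 of 6 passed an unadjusted p of 0.05, beside 11.1% of all loci, all higher, with a median of 2.17. Alb, the albumin gene, ran from 173 to 5041 FPKM, Apoa1 from 72.7 to 3099 FPKM and the joined Serpina1 genes from 162 to 7229 FPKM. The macrophage list summed to 684 to 1290 FPKM in PBS tumors, 1307 to 1902 FPKM in nonresponsive tumors and 1176 to 1924 FPKM in responsive tumors. For antibody against PBS 3 of 8 of its loci passed an unadjusted p of 0.05, beside 11.1% of all loci, all higher, with a median of 0.74. Adgre1, which encodes the macrophage antigen F4/80, was lowest in PBS 1 and responsive 2 at 15.2 and 21.4 FPKM, 2 of the 3 tumors lowest in the neutrophil genes. C1qb with C1qc led that list at 341 to 972 FPKM, followed by C1qa at 228 to 523 FPKM and Cd68 at 51.8 to 199 FPKM.

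The monocyte list summed to 968 to 1504 FPKM, 1533 to 1598 FPKM and 705 to 1382 FPKM in PBS, nonresponsive and responsive tumors. Its median was -0.75 for responsive against nonresponsive tumors, with 1 of 4 loci past an unadjusted p of 0.05, beside 5.93% of all loci. For antibody against PBS the median was 0.35, also with 1 locus past, beside 11.1% of all loci. That locus was Chil3, which was also counted above with the secondary and tertiary granule genes, with the limits given there. The most abundant loci of this list included the Ly6a and Ly6c cluster at 452 to 1125 FPKM and Plac8 at 184 to 454 FPKM. Red blood cell genes summed to 76.1 to 290 FPKM, 133 to 464 FPKM and 255 to 502.5 FPKM in PBS, nonresponsive and responsive tumors. For antibody against PBS 1 of 3 of these loci passed the threshold, beside 11.1% of all loci, with a median of 1.27. They were led by Hbb-bs with Hbb-bt at 38.8 to 249 FPKM, Hba-a1 with Hba-a2 at 33.1 to 236 FPKM and Alas2 at 0 to 17.99 FPKM. Platelet genes had 0 of 4 loci past the threshold and a median of -0.030, and were led by Pf4 at 56.2 to 604 FPKM, Ppbp, itself a CXCR2 ligand, at 3.28 to 26.5 FPKM and Gp1bb with neighbours at 6.41 to 12.9 FPKM. Eosinophil markers stayed low, with Prg2 at 0.799 to 24.6 FPKM, Siglecf at 0.319 to 3.14 FPKM, Ccr3 at 0.158 to 2.43 FPKM, 0 of 3 loci past the threshold for antibody against PBS and a median of 0.11. Between responsive and nonresponsive tumors 1 of 2 eosinophil loci passed, with a median of -0.94, namely Siglecf at 1.09, 0.319 and 1.01 FPKM in the responsive tumors and 3.14, 2.64 and 1.70 FPKM in the nonresponsive tumors, a log2 difference of -0.96 (SE 0.296, unadjusted p = 0.0168 and adjusted p = 0.835 with limma), and of -0.92 without nonresponsive 2 (unadjusted p = 0.0504 with limma). Mast cell and basophil markers had 0 of 3 loci past it and a median of 0.27, with Mcpt8 at 0 to 1.79 FPKM, Mcpt4 at 0.0569 to 2.12 FPKM and Cpa3 at 0.0794 to 2.42 FPKM. Between responsive and nonresponsive tumors 3 of 6 hepatocyte loci passed, beside 5.93% of all loci, with a median of 1.45. In that comparison 0 of 8 macrophage, 0 of 3 red blood cell, 0 of 4 platelet and 0 of 3 mast cell and basophil loci passed, with medians of -0.27, 0.66, 0.20 and -0.040.

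The genes most like the members over the 9 tumors were sought among 13177 other loci by Pearson r of log2(FPKM + 1), as a description in which 3 low and 6 higher tumors set most of the value. For the mean of the S100a8 and S100a9 loci they were Rgcc (r = 0.98), the joined Slfn1, Slfn3 and Slfn4 (0.98), Srgn (0.97), Tagap (0.97) and Slfn2 (0.97). Srgn encodes serglycin, the proteoglycan of granules in blood cells, and ran from 117 FPKM in PBS 1 to 1187 FPKM in nonresponsive 1. For the joined Cxcl1, Cxcl2 and Cxcl3 they were Hdc (r = 0.99), Il1rn (0.99), Hcar2 (0.99), Acod1 with a neighbour (0.99) and Il1b (0.99). Hdc, the enzyme that makes histamine, stood at 2.78, 68.1 and 57.5 FPKM in the PBS tumors, at 125, 42.3 and 9.25 FPKM in the nonresponsive tumors, and at 103.5, 7.72 and 85.8 FPKM in the responsive tumors. Il1rn, the interleukin 1 receptor antagonist, ran from 37.2 to 273 FPKM, and Acod1, the enzyme that makes itaconate, from 6.70 to 376 FPKM.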

How the data were processed

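Bulk RNA sequencing of 9 tumors was used, 3 per group, grouped by the sample labels. The authors deposited 1 Cufflinks table of FPKM with interval bounds per tumor. The submitters' processing notes list Bowtie2 2.2.4, TopHat2 2.1.1 and build mm8, and positions in the tables are not printed because they could not be tied to a build. The authors' Cuffdiff table, which holds their group means, fold changes and p-values, was not used. Between 19.2% and 81.5% of a tumor's summed FPKM lay in rows that name no gene, which were left out, and named rows summed to 651110 to 814452.

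Genes that shared a row in any tumor were joined (48254 loci, 7 left out for a failed estimate). limma 3.58.1 (R 4.3.3, lmFit, eBayes with trend) was run on log2(FPKM + 1) of the tumors of each comparison, for loci that reached an FPKM of 1 in 3 or more of them, with Benjamini-Hochberg adjustment. The fold change of low genes is understated on this scale. Permutation tests (scipy 1.17.1, Python 3.11.15) were exact and two-sided. Figures were drawn with matplotlib 3.10.9. The steps were tested on simulated data. Named were all 10 members, the 3 most abundant loci of each other list, loci of the neutrophil, CXCR2 axis, upstream and partner lists with an unadjusted p under 0.05 in any comparison, and the 5 loci most like the S100 genes and the ligands. Ly6g, Prtn3 and Adgre1, the tests of Ccl20 and Siglecf and the ratios to Cxcr2 were chosen after values were seen, and 1 locus that the rule names is not reported here. The members and lists were chosen with earlier results of these data known. Alternatives were a pseudocount of 0.1, no filter, a filter at FPKM 5, scaling to the upper quartile, scaling named rows to 1 total, the replicate number as a block, leaving out each tumor, all 9 tumors in 1 fit, and rows not joined. Setting shared rows to missing was added after the values were seen.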

Additional observations from a re-analysis of the deposited data

How the results depend on the processing

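The 8 member loci gave 32 differences, of which none passed an unadjusted p of 0.05 in the reported fits. Over 468 alternatives 416 kept direction and side of the threshold, 51 changed direction, 42 of them on leaving out a tumor, and 1 passed the threshold, Retnlg in nonresponsive tumors against PBS without nonresponsive 3 (log2 difference 1.59, unadjusted p = 0.0376 with limma). For responsive against nonresponsive tumors, scaling named rows to 1 total gave -0.15 for Cxcl1, Cxcl2 and Cxcl3 and -0.19 for Cxcl5, where the median of all loci went from -0.067 to -0.24, and it gave -0.13 for the S100a8 locus in responsive tumors against PBS. By rows, Cxcl1 gave -0.57 and Cxcl3 -1.16 for responsive against nonresponsive tumors, and Cxcl3 -0.80 in responsive tumors and -0.22 in all antibody-treated tumors against PBS. With shared rows missing, Cxcl3 gave -0.085 for responsive against nonresponsive tumors and Cxcl2 -2.34 for nonresponsive tumors against PBS, where 1 nonresponsive tumor was left. The cause of these changes was not tested. The 20 calls at an unadjusted p of 0.05 for other named loci kept their direction under all 262 alternatives run for them and their side of the threshold under 193, and none of the reported ones passed after adjustment.

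Leaving out 1 tumor, differences for responsive against nonresponsive tumors ranged from -0.57 to 0.024 for Csf3r with Mrps15, -0.69 to 0.96 for the joined ligands, -0.85 to 0.75 for Cxcl5, -0.63 to 0.11 for the S100a8 locus, -1.11 to 0.76 for S100a9 and -1.10 to 0.32 for Trem1. For responsive tumors against PBS they ranged from -0.013 to 0.42 for Csf3r with Mrps15, -0.81 to 1.30 for the joined ligands, -0.18 to 1.38 for Cxcl5, -1.002 to 0.45 for Cxcr2, -1.08 to 0.39 for Retnlg, -0.24 to 0.29 for the S100a8 locus, -0.55 to 1.66 for S100a9 and -0.23 to 1.17 for Trem1. For nonresponsive tumors against PBS they ranged from -0.86 to 1.09 for the joined ligands, -0.19 to 1.495 for Cxcl5, -0.089 to 0.65 for the S100a8 locus and -0.35 to 1.82 for S100a9. For all antibody-treated tumors against PBS they ranged from -0.84 to 1.08 for the joined ligands, -0.18 to 1.38 for Cxcl5, -0.49 to 0.68 for Cxcr2, -0.28 to 0.62 for Retnlg, -0.033 to 0.30 for the S100a8 locus, -0.45 to 1.44 for S100a9 and -0.031 to 1.02 for Trem1.

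Over all loci, 754 passed an unadjusted p of 0.05 for responsive against nonresponsive tumors (305 to 1428 leaving out 1 tumor), 2434 for responsive tumors against PBS (1041 to 3998), 409 for nonresponsive tumors against PBS (174 to 1960; 789 with no filter, 243 with a filter at 5) and 1469 for all antibody-treated tumors (265 to 3155). After adjustment 8, 19, 5 and 1 passed, with 0 to 14, 0 to 22, 0 to 18 and 1 to 5 leaving out 1 tumor, 0, 19, 3 and 6 with no filter, 1, 5, 3 and 1 with a filter at 5, and 7 and 3 for the comparisons with PBS of responsive and nonresponsive tumors in 1 fit of all 9. Scaling named rows to 1 total turned 555 higher and 199 lower loci into 291 and 584 for responsive against nonresponsive tumors, 1159 and 1275 into 897 and 2306 for responsive tumors against PBS, and 199 and 210 into 238 and 143 for nonresponsive tumors against PBS. With no filter, 833 higher and 636 lower loci for all antibody-treated tumors became 948 and 1153.

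The replicate numbers mark separate mice, and deviations of same-numbered tumors correlated from -0.50 to 0.64, so the numbers were not taken as pairs. With the replicate number as a block, 970, 989 and 215 loci passed an unadjusted p of 0.05 in the 3 comparisons of groups and 0, 0 and 0 after adjustment, and 0 member loci passed. With 3 tumors per group, differences of several-fold in these genes lie inside the intervals, and FPKM without fragment counts gives no further limit on low genes.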

Other observations

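Padi4 and Cxcl15, chosen after their values were seen, ran against the other neutrophil and chemokine genes. Padi4, the enzyme that citrullinates histones in neutrophils, stood at 74.4, 42.0 and 50.7 FPKM in PBS 1, 2 and 3, at 6.68, 43.8 and 72.6 FPKM in nonresponsive 1, 2 and 3, and at 2.63, 60.7 and 27.6 FPKM in responsive 1, 2 and 3. Padi4 was thus lowest in nonresponsive 1 and responsive 1, where Csf3r was highest, though the Csf3r row of responsive 1 also holds Mrps15. Padi4 was highest in PBS 1, where Csf3r was lowest. Cxcl15 stood at 55.5, 15.6 and 32.8 FPKM in the PBS tumors, at 0, 16.2 and 10.2 FPKM in the nonresponsive tumors, and at 0, 45.9 and 5.75 FPKM in the responsive tumors, in the same order.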
